A study of Homo sapiens with 4 samples.

Results

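The zinc finger genes of chromosome 19 are described here by the crosslink sites that individual-nucleotide resolution UV crosslinking and immunoprecipitation (iCLIP) placed in them. Members were taken by name: every gene on chromosome 19 whose symbol is ZNF followed by a number, with no hyphen, and which labels a site in either of the deposited lists. This gave 160 of the 14416 genes of the series, 142 with a PDCD4 site, 113 with an IgG site and 95 with both. Of all 14416 genes, 12932 had a PDCD4 site and 11846 an IgG site. GENCODE release 44 annotates 246 protein-coding ZNF genes on chromosome 19, and 87 of them had no listed site. Both lists hold sites from called peaks, so crosslinks that the peak call left out are not counted anywhere here. Of the members, 159 are protein-coding and 1, ZNF321P, is a transcribed processed pseudogene.

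The cells were wild-type MCF10A, an established and untransformed breast epithelial line, with no gene or drug treatment in either arm. PDCD4, an RNA-binding protein known as a tumour suppressor and an inhibitor of translation initiation, was immunoprecipitated after UV crosslinking in 2 replicates, and isotype control IgG in 2 replicates. The authors merged the replicates of each arm into 1 list, so no value per replicate was analysed here, no spread between replicates is known and no p-value was computed. A site spans 1 nt, and its score is the number of cDNAs whose end marks that nucleotide. The PDCD4 list held 158922 sites and 409308 cDNAs and the IgG list 111361 sites and 276139 cDNAs. All intervals are 95% intervals that cover counting error only. Those of cDNA sums treat each cDNA as a separate count, although a site carries 2.58 PDCD4 or 2.48 IgG cDNAs on average. They are therefore narrower than intervals of site counts, which are given for the main ratios.

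Most of these genes encode proteins with an array of C2H2 zinc fingers, short modules held together by a zinc ion that read DNA sequence in tandem. Many also carry a KRAB domain, through which TRIM28 and its partners are recruited to silence chromatin, and a well studied function of the family is the repression of transposable elements. The genes multiplied by repeated local duplication on chromosome 19, so that neighbours are close paralogs, and their coding sequence for the fingers typically lies in a single long last exon.

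The sites themselves were mostly weak. Scores reached 7 for PDCD4 and 5 for IgG, and 3 of 500 PDCD4 sites (0.6%, Wilson interval 0.20% to 1.75%) and 0 of 404 IgG sites (a count of 0 allows up to 0.743%) had a score greater than 5. Over the whole lists, 1.48% of PDCD4 sites and 0.69% of IgG sites passed that threshold. The strongest PDCD4 sites are shown with the genome sequence around them (GRCh38, the RNA strand from 5′ to 3′), where the capital marks the crosslinked nucleotide at position 16 of a 30-nt window. The site with a score of 7 lay in a stretch shared by ZNF580 and ZNF581, and those with a score of 6 lay in coding sequence outside the finger array of ZNF45 and of ZNF865. The site with a score of 7 was intronic in an annotated transcript but outside the canonical transcripts on its strand.
ZNF580/ZNF581, intron, plus strand, chr19:55636908-55636937: agggaaagccagcacCatggtgcccagaag
ZNF45, coding sequence, minus strand, chr19:43915137-43915166: agaagtaggattaagGtacctgcctcatga
ZNF865, coding sequence, plus strand, chr19:55614122-55614151: gtccgggccgggggtGacgcctgggctggg

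A further set is shown because it lies on or beside the code of the linker that joins one finger to the next, a stretch repeated along each array and between paralogs. ZNF333 had 2 neighbouring PDCD4 sites in the linker, the stronger with a score of 3, and the linker site of ZNF91 had a score of 4. The ZNF430 site, with a score of 2, lay inside a finger match with the linker letters in its window. The linker site of ZNF708 also had a score of 2, and the 30 nt that follow it occur 234 times in the genome, in annotated transcripts of 57 other ZNF genes and pseudogenes. The 30 nt after the ZNF91 site occur 8 times, those after the ZNF430 site 4 times, and those after the ZNF333 site only there.
ZNF333, coding sequence, plus strand, chr19:14718744-14718773: actggagagaagcccTttgaatgcagccag
ZNF91, coding sequence, minus strand, chr19:23360741-23360770: actggagagaaacctTacaagtgtgaagaa
ZNF708, coding sequence, minus strand, chr19:21293366-21293395: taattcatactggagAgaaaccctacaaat
ZNF430, coding sequence, plus strand, chr19:21057224-21057253: acacataaaagaattCatactggagagaaa

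The 160 genes held a smaller share of the PDCD4 list than of the IgG list. Their PDCD4 sites summed to 1251 cDNAs, 0.306% of that list, and their IgG sites to 978 cDNAs, 0.354%. The log2 ratio of these shares, PDCD4 over IgG, was -0.21 (exact interval -0.33 to -0.09). Over sites with a score of at least 3 it was -0.12, with an interval across 0 (-0.29 to 0.05). By number of sites it was -0.21, with a wider interval (-0.40 to -0.01). The other genes of chromosome 19 went the other way, with 19682 and 9518 cDNAs and a log2 ratio of 0.48 (0.44 to 0.52). The difference between the groups was -0.69 on the log2 scale (-0.82 to -0.57), and -0.64 (-0.82 to -0.46) over sites with a score of at least 3. By number of sites the difference was -0.68 (-0.88 to -0.48). ZNF genes of other chromosomes had a log2 ratio of -0.29 (-0.36 to -0.22), which differed from the members by 0.08 with an interval across 0 (-0.06 to 0.22). A smaller share in the PDCD4 list than in the IgG list was therefore measured for ZNF genes on and off chromosome 19, and not for the other genes of that chromosome. The methods describe a removal of IgG sites before PDCD4 peaks were called, and 1 member position was found in both lists. The number of such positions over the whole lists is not given here, so this count cannot be read as a trait of the members. RNA abundance was not analysed here, and its part in these counts was not tested.

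The members also carried few listed sites for their length. They had 9.97 PDCD4 and 8.06 IgG sites per 100 kb of annotated gene, against 36.2 and 18.2 in the other chromosome 19 genes and 13.5 and 11.2 in ZNF genes elsewhere. A member with any PDCD4 site had a median of 2 sites and 6 cDNAs, and 55 of the 142 had a single site. In the IgG list, the median was 2 sites and 5 cDNAs, and 43 of 113 had a single site. The 5 members with the largest sums held 18.6% of the members' PDCD4 cDNAs and 25.4% of their IgG cDNAs.

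**Figure D1:**
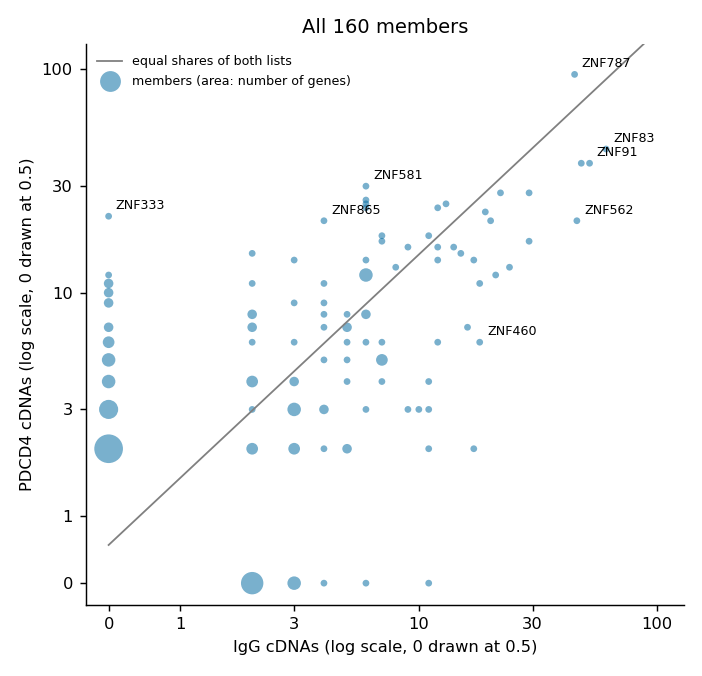
PDCD4 cDNAs (vertical) against IgG cDNAs (horizontal) of the 160 genes, both on log scales with 0 drawn at 0.5. Each point is a pair of counts, its area is the number of genes there, and the line marks equal shares of both lists. ZNF787 lies at 95 and 45, ZNF562 at 21 and 46, and 47 of the 160 genes have no IgG site. Over the whole series, 11846 of 14416 genes have an IgG site.

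The ratio changed with the region of the site. Regions were taken from any annotated transcript on the strand, which can belong to a gene other than the labelled member. Coding sequence (CDS) held 107 of 500 PDCD4 sites (21.4%, 18.0% to 25.2%) and 53 of 404 IgG sites (13.1%, 10.2% to 16.8%). Introns held 51.0% (46.6% to 55.4%) of PDCD4 and 60.4% (55.6% to 65.0%) of IgG sites, and the 3′UTR 20.6% and 21%. The 5′UTR and ncRNA exons held the remainder, 15 and 20 PDCD4 sites against 9 and 13 IgG sites. The other chromosome 19 genes had like shares in CDS (21.4% and 13.2%), a lower PDCD4 share in introns (46.5%) and a higher one in ncRNA exons (7.52%, against 4% in members). Within CDS the members' share of the PDCD4 list exceeded their share of the IgG list, with a log2 ratio of 0.52 (0.21 to 0.83). Within introns it was -0.46 (-0.62 to -0.29) and within the 3′UTR -0.26 (-0.53 to 0.01). By number of sites the members had 0.50 (0.01 to 1.00) in CDS and -0.45 (-0.71 to -0.19) in introns. Over all genes of the lists the values from cDNAs were 1.11 in CDS, -0.44 in introns and 0.22 in the 3′UTR. The members' intron value was thus near that of all genes, and their CDS value was below that of all genes.

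The gap to the other chromosome 19 genes was present in each of the 3 regions with most sites. It was -0.66 (-0.98 to -0.34) in CDS, where the other genes had a log2 ratio of 1.18, and -0.81 (-1.08 to -0.53) in the 3′UTR. In introns it was -0.59 (-0.77 to -0.42). Against ZNF genes of other chromosomes, the interval of the difference crossed 0 in CDS (-0.06, -0.43 to 0.30), in the 3′UTR (-0.31, -0.63 to 0.01) and in introns (0.17, -0.02 to 0.35).

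**Figure D2:**
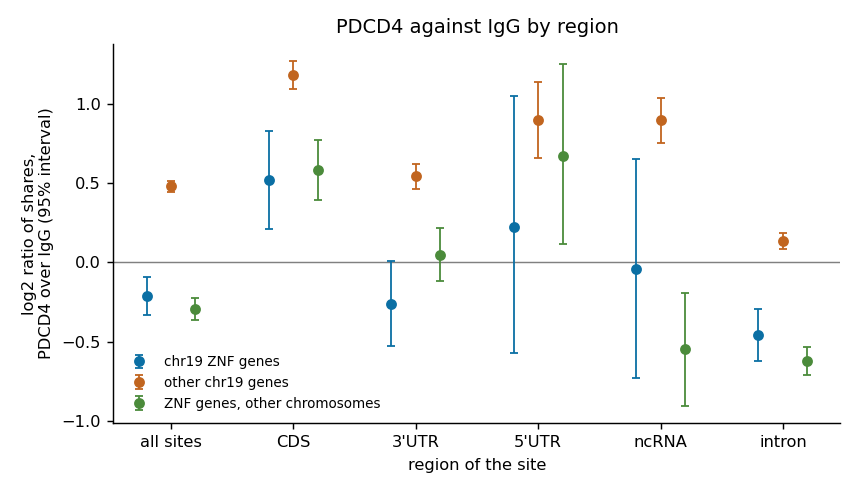
Log2 ratio of cDNA shares, PDCD4 over IgG, with exact 95% intervals, for all sites and for each region, in the chromosome 19 ZNF genes, the other chromosome 19 genes and the ZNF genes of other chromosomes. The members lie below the other chromosome 19 genes in CDS (0.52 against 1.18), 3′UTR (-0.26 against 0.54) and intron (-0.46 against 0.14).

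Base composition moved with the ratio. The median GC content of the members' 30-nt windows was 40% in both lists, against 53.3% and 50% in the other chromosome 19 genes. Windows under 40% GC had a log2 ratio of -0.35 (-0.54 to -0.17) in the members and 0.16 (0.09 to 0.24) in the other genes, a difference of -0.52 (-0.71 to -0.32). From 40% to 60% GC the difference was -0.65 (-0.84 to -0.47). Over 60% GC the members had only 35 PDCD4 and 21 IgG sites, and the interval of the difference crossed 0 (-0.35, -0.85 to 0.17). Over all genes of the lists, the log2 ratio went from -0.35 under 40% GC to 0.70 over 60%.

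At the level of single genes, 34 members had at least 20 cDNAs over both lists, and their log2 ratios, with 1 cDNA added to each sum, had a median of -0.27. The median of all 7305 genes with as many cDNAs was -0.10, that of 345 other chromosome 19 genes 0.45 and that of 101 ZNF genes elsewhere -0.25. A log2 ratio of at least 1 was found for 6 of the 34 members, 17.6%, where 16.4% of all genes passed. A log2 ratio of -1 or lower was found for 9 of 34, 26.5%, where 16.1% of all genes passed. Of the 101 ZNF genes elsewhere, 10.9% were at 1 or higher and 20.8% at -1 or lower, and of the 345 other chromosome 19 genes 29.9% and 6.38%. With 34 genes, the first member share is near that of all genes, and whether the second differs was not tested. Both counts depended on the minimum: with at least 10 cDNAs they were 16 and 18, and with at least 50 they were 0 and 3. The minimum sets which members are counted and leaves each ratio as it is. Shares over all genes were not computed at these other minimums, so these counts have no background beside them. The remaining 126 members had too few cDNAs for a ratio of their own.

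ZNF787 carried the most cDNAs of any member, 95 at 37 PDCD4 sites and 45 at 19 IgG sites, with a log2 ratio of 0.49. Its sites were mainly intronic, 25 for PDCD4 and 18 for IgG, but its exons differed: 4 coding and 8 3′UTR sites were listed for PDCD4, against 0 and 1 for IgG. With no pseudocount its ratio was 0.51 (-0.02 to 1.06), so the counting interval reached 0.

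Among the members with a larger share for PDCD4, ZNF333 had 22 cDNAs at 9 PDCD4 sites and no IgG site. Set against the 3 cDNAs that a count of 0 allows, its 22 cDNAs gave a share at least 4.95-fold higher in the PDCD4 list, and with the counting error of the 22 included the exact lower limit of its log2 ratio was 1.89. The sites of ZNF333 lay in introns (6), in its coding exons (2) and in an ncRNA exon (1). ZNF865 had 21 cDNAs at 6 PDCD4 sites, 2 coding and 4 in the 3′UTR, and 4 cDNAs at a single intronic IgG site, whose following 30 nt occur 271 times in the genome.

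The other 4 genes past a log2 ratio of 1 overlap in pairs and do not count separately. ZNF580 (24 and 6 cDNAs) and ZNF581 (30 and 6 cDNAs) share 5 of their 7 PDCD4 sites and both IgG sites, and together, with each site counted singly, they had 30 PDCD4 and 6 IgG cDNAs. ZNF701 had 25 and 6 cDNAs. ZNF808, a KRAB zinc finger gene known to be needed for pancreas development, had 26 and 6 cDNAs. They share 4 PDCD4 sites and all 3 IgG sites, and their union held 37 PDCD4 and 6 IgG cDNAs. The log2 ratio of the first pair was 1.75 (0.47 to 3.31) and that of the second 2.06 (0.80 to 3.59). The strongest shared PDCD4 site of each pair, with a score of 7 and of 5, lay outside the canonical transcripts. The 6 genes thus stand for 4 places on the chromosome.

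At the other end, ZNF562 had 21 PDCD4 and 46 IgG cDNAs, a log2 ratio of -1.66, with IgG sites in introns (9), the 3′UTR (7) and CDS (2). ZNF460 had 6 and 18 cDNAs (-2.01), and 6 of its 7 IgG sites lay in the 3′UTR. ZNF100 had 7 and 16 cDNAs (-1.66). ZNF146, whose protein consists almost wholly of zinc fingers, had 13 and 24 (-1.40), and ZNF431 had 12 and 21 (-1.33). All 5 PDCD4 sites of ZNF431 lay in its 3′UTR, while 7 of its 8 IgG sites were intronic. The list past -1 also held ZNF180 (11 and 18 cDNAs) and ZNF264 (17 and 29 cDNAs). Of the 18 members with IgG sites only, ZNF529 had the most, 11 cDNAs.

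The genes with the largest IgG sums other than ZNF787 and ZNF562 had larger shares in the IgG list as well. ZNF83 had 44 PDCD4 and 61 IgG cDNAs (-1.03). ZNF91, a repressor of SVA and L1 retrotransposons, had 38 and 52 (-1.01). ZNF121 had 38 and 48 (-0.90), mostly in its 3′UTR, which held 12 of 19 PDCD4 and 15 of 22 IgG sites. ZNF83 and ZNF91 were mainly intronic, with 22 of 27 and 16 of 23 IgG sites in introns. Next by IgG sum came ZNF254 with 28 and 29 cDNAs (-0.62) and ZNF264, given above, with as many IgG cDNAs (-1.30). ZNF544, named for its PDCD4 sum, had 28 and 22 (-0.23). ZNF45, named for its site with a score of 6, had 8 and 5 cDNAs in all.

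**Figure D3:**
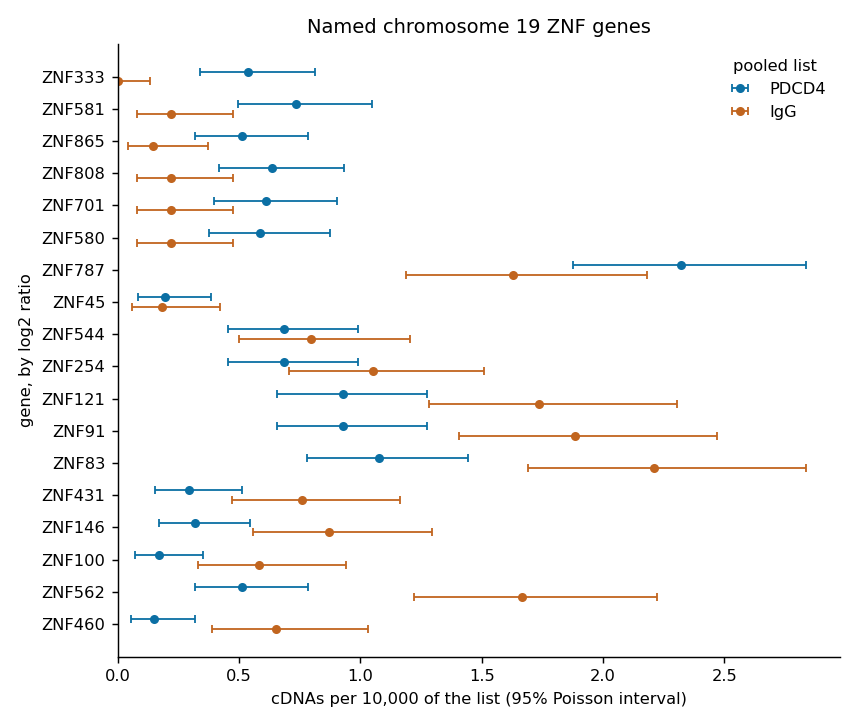
cDNAs per 10000 of each pooled list, with exact Poisson 95% intervals, for the 18 genes that the naming rule gave, ordered by log2 ratio. ZNF333, ZNF581, ZNF865, ZNF808, ZNF701 and ZNF580 lie at the top with more PDCD4 than IgG, and ZNF460 lies at the bottom with 0.147 against 0.652.

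The IgG list had its own repeated sequences. The IgG site of ZNF83 with a score of 5 lay in an intron, in a stretch whose following 30 nt occur 72 times in the genome, and that of ZNF562 was also intronic, with 2 occurrences. They are shown because ZNF83 and ZNF562 are among the genes with the largest IgG sums.
ZNF83, intron, minus strand, chr19:52664307-52664336: cctcatagagacgggCtttctccatgttgc
ZNF562, intron, minus strand, chr19:9671221-9671250: atagatgaacatattTtcagagtacatgtg

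Sites whose following sequence recurs in the genome were more frequent in the PDCD4 list among members than among the other genes compared, while the IgG interval of members included the value of the other chromosome 19 genes. The 30 nt after the site occurred again in the genome for 91 of 500 PDCD4 sites (18.2%, 15.1% to 21.8%) and 62 of 404 IgG sites (15.3%, 12.2% to 19.2%). The other chromosome 19 genes had 11.2% and 12.4%, and ZNF genes of other chromosomes 7.82% and 8.61%. In CDS the PDCD4 share was 19 of 107 (17.8%, 11.7% to 26.1%) for members and 3.05% (2.31% to 4.02%) for other chromosome 19 genes, and the IgG share 5 of 53 (9.43%, 4.10% to 20.3%) and 4.72%. Of these coding sites, 14 of the 19 for PDCD4 and all 5 for IgG matched an annotated transcript of another ZNF gene, as did 3 of 12 recurrent 3′UTR sites in each list. Introns held 55 of the 91 recurrent PDCD4 sites and were not searched for paralogs. Whether a read at such a site came from the labelled gene cannot be known from the lists, and how the authors treated reads with several matches is not given in the sources used here. Without the recurrent sites, the members' log2 ratio was -0.23 (-0.36 to -0.10).

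Letters from the linker code were likewise more frequent than over the whole lists. They were chosen because the finger arrays repeat them, so such an excess was likely beforehand. The heptamer CTGGAGA, searched on the RNA strand only, was in 2.8% of the members' PDCD4 windows (14 of 500) and 1.98% of their IgG windows (8 of 404), against 0.326% and 0.247% of the windows of the whole lists. In CDS it was in 10 of 107 PDCD4 windows (9.35%, 5.16% to 16.4%) and 6 of 53 IgG windows (11.3%, 5.29% to 22.6%), so the lists did not differ beyond counting error. The CDS windows of the whole lists held it in 0.722% and 0.573%, and those of ZNF genes of other chromosomes in 3.05% and 0.794%. GGAGG, which may overlap CTGGAGA by some letters, was in 2% and 3.47% of the members' windows and in 6.90% and 6.24% of those of other chromosome 19 genes. TTTTT was in 18.2% and 21.3%, near the whole lists (17.0% and 20.3%).

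Within coding sequence, the finger array as a whole and the fingers themselves gave different comparisons with length. Coding sites were used here only where they lay in the canonical coding sequence of a labelled member, 101 for PDCD4 and 49 for IgG. The array ran from the first to the last finger found in the translated canonical transcript. It held 68 of 101 PDCD4 coding sites (67.3%, 57.7% to 75.7%) and took up 62.9% of the coding positions of the 71 members concerned. For IgG it held 34 of 49 sites (69.4%, 55.5% to 80.5%) and took up 65.5% of the positions of 39 members. Both intervals include the share of positions. Inside the finger matches alone, without the linkers, lay 55 of 101 PDCD4 sites (54.5%, 44.8% to 63.8%), above the 43.9% of positions they take up. For IgG it was 27 of 49 (55.1%, 41.3% to 68.1%) against 42.9% of positions, which the interval includes, so the lists had nearly the same share. None of the 2 coding PDCD4 sites with a score greater than 5 was in an array. ZNF134 had a coding site with a score of 5 inside a finger.

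Along the transcript, the long last exon was the element with most sites. It held 189 of 427 PDCD4 sites that could be placed on a canonical transcript (44.3%, 39.6% to 49.0%) and 128 of 337 IgG sites (38%, 33.0% to 43.3%), in 18.1% of the length. Its density, not scaled to list size, was 3.02 PDCD4 and 2.04 IgG sites per 10 kb, and its log2 ratio of cDNA shares was 0.05 (-0.15 to 0.26). The first, internal and last introns had fewer than 1 site per 10 kb. The last intron had 43 PDCD4 and 58 IgG sites and a log2 ratio of -1.01 (-1.39 to -0.63), which was -1.02 without ZNF787, the gene with most cDNAs there. The first intron had a log2 ratio of -0.54 (-0.83 to -0.25), and -0.73 without ZNF787, while internal introns were near 0 (-0.10, -0.41 to 0.23). Internal exons had 14 PDCD4 and 3 IgG sites, a log2 ratio of 1.80 (0.52 to 3.35), and 1.60 (0.30 to 3.17) without ZNF121. These intervals count cDNAs singly (31 and 6), and none was computed for so few sites.

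**Figure D4:**
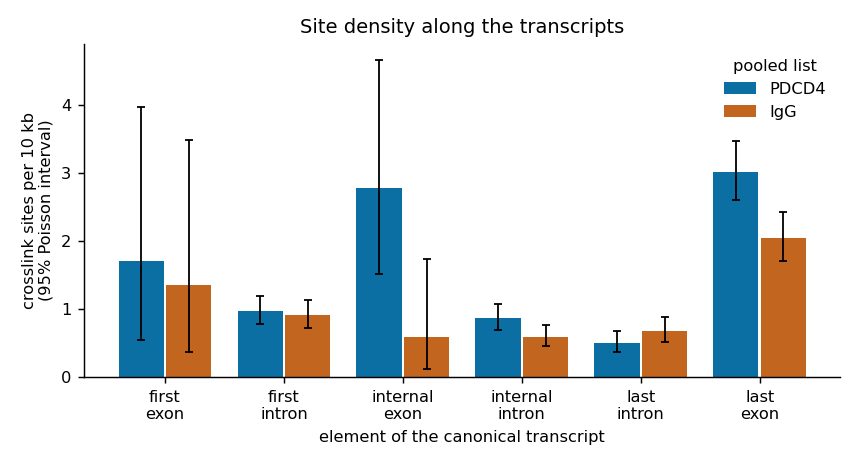
Crosslink sites per 10 kb of each element of the members' canonical transcripts, with exact Poisson 95% intervals, for the PDCD4 and IgG lists. Densities are not scaled to list size, and the PDCD4 list is the larger. The last exon has 3.02 and 2.04 sites per 10 kb, with a log2 ratio of cDNA shares of 0.05. The first intron has 0.972 and 0.917 (log2 ratio -0.54) and the last intron 0.507 and 0.684 (-1.01).

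The nucleotide at the site was most often T in the genome, U in the RNA: 47.2% (42.9% to 51.6%) of PDCD4 and 54.5% (49.6% to 59.2%) of IgG sites of members. The whole lists had T at 46.7% and 51.6%, ZNF genes of other chromosomes at 45.7% and 53.7%, and the other chromosome 19 genes, lower, at 41.1% and 44.5%. In the 3′UTR, C was found at 34 of 103 PDCD4 sites (33.0%, 24.7% to 42.6%) and 7 of 85 IgG sites (8.24%, 4.05% to 16%) of members. Other chromosome 19 genes showed no such gap in the 3′UTR (27.4% and 27.2%), and ZNF genes of other chromosomes had 25% and 19.6%. The C sites came from 25 of the 56 members with a PDCD4 site in the 3′UTR and 6 of the 41 with an IgG site, and no member gave more than 3 of them. The 3′UTR contrast was singled out after its values were seen.

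Members fell into 16 clusters when a new cluster was begun after a gap of 1 Mb without a member, and 8 clusters had at least 100 cDNAs over both lists. The most distal, with 38 members at chr19:55476617-58475436, had 407 PDCD4 and 225 IgG cDNAs and a log2 ratio of 0.29 (0.05 to 0.53), and without ZNF787, which lies in it, 0.23 (-0.04 to 0.50). With a gap of 500 kb it split into 8 members, ZNF787 included, at 0.71 (0.32 to 1.11) and the 30 most distal at 0.00 (-0.31 to 0.31). The neighbouring cluster of 31 members at chr19:51571283-53580269 had 270 and 188 cDNAs (-0.05, -0.32 to 0.23). Of the 6 more proximal clusters, 4 had intervals of cDNA counts below 0 and 2 had intervals across 0 (-0.35, -0.92 to 0.22, and -0.47, -0.96 to 0.02). By number of sites those 4 had log2 ratios of -0.46, -0.96, -0.67 and -0.51 in order along the chromosome. The most distal cluster had 0.24 by sites. Intervals by sites, which would be wider, were not computed for clusters. The cluster of 12 members at chr19:19668796-21767579, which holds ZNF100 and ZNF431, had 75 and 93 cDNAs (-0.88, -1.34 to -0.42), and with the smaller gap split into 4 members at 0.35 (-0.90 to 1.70) and 8 at -1.10 (-1.61 to -0.60). The 4 members at chr19:23221599-24129968, ZNF91 and ZNF254 among them, had -0.62 (-1.08 to -0.16), the 9 at chr19:8806170-9675100, with ZNF121 and ZNF562, -0.62 (-0.99 to -0.24), and the 19 at chr19:36182276-37817300, with ZNF146, -0.67 (-1.15 to -0.18).

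**Figure D5:**
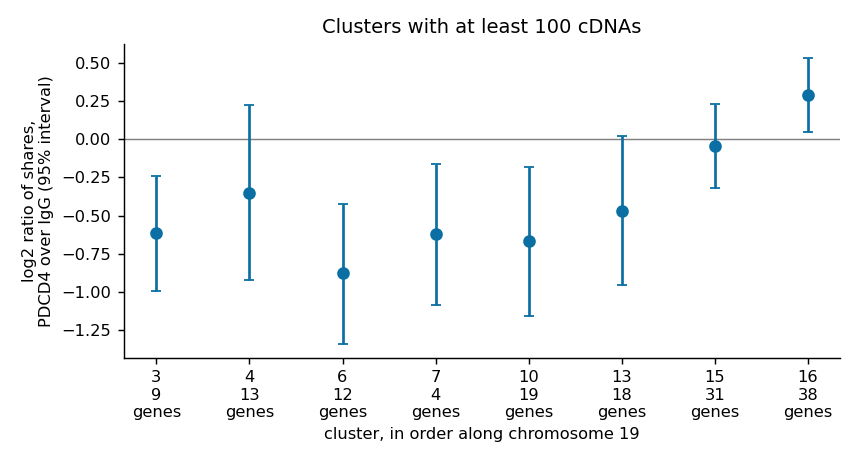
Log2 ratio of cDNA shares, PDCD4 over IgG, with exact 95% intervals, for the 8 clusters with at least 100 cDNAs, in order along the chromosome and with their number of genes. Cluster 16, the most distal, is at 0.29, and clusters 3, 6, 7 and 10 have intervals wholly below 0.

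A KRAB A-box was found by pattern in the protein of 131 members, with 875 PDCD4 and 678 IgG cDNAs, and not in 28, with 370 and 300. This split was made after values were seen. A pattern match is not a domain annotation, so the 28 may include genes with a KRAB domain that the pattern missed. The log2 ratios were -0.20 (-0.35 to -0.05) and -0.27 (-0.49 to -0.04), and the difference, members without the pattern minus members with it, was -0.07 (-0.33 to 0.20). Without ZNF787 the second value was -0.46 (-0.71 to -0.21).

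The cofactors through which KRAB proteins act were counted from a fixed list. All 11 listed cofactor genes had at least 20 cDNAs, with a median log2 ratio of 0.80, 9 above 0, 4 at 1 or higher and 0 at -1 or lower. Over all genes with as many cDNAs, the median was -0.10, 46.2% were above 0, 16.4% were at 1 or higher and 16.1% at -1 or lower. DNMT1, the maintenance DNA methyltransferase, had 201 PDCD4 and 45 IgG cDNAs (1.57). SETDB1, the H3K9 methyltransferase recruited by TRIM28, had 38 and 7 (1.72). TRIM28 itself, the corepressor that binds the KRAB domain, had 66 and 19 (1.18). The HP1 genes were mixed: CBX3 had 44 and 12 (1.22), CBX5 126 and 60 (0.49) and CBX1 20 and 16 (-0.26). Of the deacetylases, HDAC1 had 30 and 11 (0.80) and HDAC2 76 and 31 (0.70), and the remodeller gene CHD3 had 112 and 72 (0.06). MORC2, which acts with the HUSH silencing complex, had 34 and 12 (0.86), and ATRX, a chaperone of histone H3.3, had 100 and 78 (-0.21). The counting intervals of CBX1, CHD3, HDAC1, MORC2 and ATRX crossed 0, so their direction is not settled by these counts.

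Zinc finger genes of chromosome 19 with other symbols were mostly without listed sites. Of 19 listed symbols, ZFP112 is an older symbol of ZNF112, a member with 3 PDCD4 and 2 IgG cDNAs. Of the remaining 18, 6 had a site and 3 had at least 20 cDNAs. ZBTB7A, a repressor of fetal globin genes, had 132 PDCD4 and 51 IgG cDNAs (0.79). ZBTB45 had 20 PDCD4 cDNAs and no IgG site. ZSCAN5A had 18 and 25 cDNAs (-1.02).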

How the data were processed

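iCLIP was done by the study on MCF10A cells, 2 replicates with PDCD4 antibody and 2 with IgG. The authors called peaks of crosslink sites with iCount on the Ensembl release 88 genome (GRCh38) and deposited 1 merged peak list per arm. Crosslink sites that the peak call left out are not in these lists. A gene without a listed site can therefore still have had crosslinks. The score deposited by the authors is an unnormalized count of cDNAs at 1 nucleotide. The methods' threshold of 5 was not applied here, since 3 member sites pass it. The methods' differential test could not be fitted to merged lists. Sites were assigned by strand to regions of GENCODE release 44 (same build, later release), with CDS taking precedence over 3′UTR, then 5′UTR, ncRNA exons and introns. All transcripts on the strand were used, also those of genes other than the labelled one. Zinc fingers were found in the translation of the canonical transcript, in place of a RefSeq protein. The 30 nt from each site were searched on both strands of the genome, with 20 nt as an alternative.

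The members and gene lists were chosen with earlier results of these data known. Named genes are those with a site above a score of 5, the 8 largest PDCD4 and 5 largest IgG sums, the 5 highest and 5 lowest log2 ratios among members with at least 20 cDNAs, and listed cofactor and other zinc finger genes with at least 20 cDNAs. ZNF112, ZNF134, ZNF180, ZNF264, ZNF321P, ZNF430, ZNF529 and ZNF708 were named outside this rule after their values were seen. Log2 ratios of groups have exact binomial (Clopper-Pearson) intervals, shares Wilson intervals, differences conditional exact intervals. Sites with several labels counted for each gene (122 member sites), and once in group sums. Alternatives changed the score threshold, the unit (sites or cDNAs), the totals, the region rule, the pseudocount, the minimum and the cluster gap, or left out recurrent, shared or multiply labelled sites. Scripts were tested on simulated data. Python 3.11.15, numpy 2.4.6, pandas 2.3.3, scipy 1.17.1, numba 0.67.0 and matplotlib 3.10.9 were used.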

Additional observations from a re-analysis of the deposited data

How the results depend on the processing

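No paired analysis was possible because the deposited lists merge the replicates, and for the same reason no replicate could be left out. Of 91 recomputed values, 68 stayed within the 95% interval of the reported value, or for counts within 1.5 times it, 23 moved further and 0 reversed. A reversal could be recorded only for log2 ratios and differences whose interval excluded 0. Shares and counts could not reverse. Some of the 68 could not move. The difference to other chromosome 19 genes does not use list totals, and no member site lay off the annotated strand. The members' log2 ratio was -0.64 with totals of chromosome 19 in place of whole lists. With scores of at least 3 it was -0.12 (-0.29 to 0.05), inside the reported interval but with its own interval across 0. It was not computed for scores greater than 5, where IgG has no member site. With 3′UTR placed before CDS, PDCD4 shares were 16.6% for CDS and 25.4% for 3′UTR. With 1 transcript per gene, the IgG intron share was 55%. Over the 3 PDCD4 sites scoring more than 5, the shares were 66.7% in CDS, 0% in 3′UTR, 33.3% in introns, 0% on a T, 0% recurrent and 0% of coding sites in the array, too few sites to read. A score above 3 was reached by 9.8% of PDCD4 and 7.67% of IgG sites, and above 10 by 0%. With 20 nt, recurrence was 33.6% and 35.1%, against 21.3% and 23.6% in the other chromosome 19 genes. Inside finger matches alone lay 54.5% of PDCD4 and 55.1% of IgG coding sites, in 43.9% and 42.9% of coding positions. Members at a log2 ratio of at least 1 numbered 16 with a minimum of 10 cDNAs, 0 with a minimum of 50, 2 with a pseudocount of 5 and 3 by number of sites. Those at -1 or lower numbered 18 and 3 with minimums of 10 and 50. The minimum changes which members are counted and not the ratio of a member, and no share over all genes was computed for these alternatives. Leaving out ZNF787 or the leading gene of an element was chosen after seeing the data.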
